A study of Mus musculus with 52 samples.

Results

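CTCF sites that carried no cohesin in wild-type cells were examined on the mouse autosomes. They were chosen by 2 criteria, namely that a CTCF peak of the wild-type list overlapped no wild-type peak of the cohesin subunit Rad21 by even 1 bp, and that it met a CTCF peak of at least 1 of the other genotypes. Of 58231 autosomal CTCF wt peaks, 18866 met no Rad21 wt peak, which is 32.4% of the list. Of these, 16179 had a CTCF peak in another genotype and form the set described here (27.8% of the list, 95% Wilson interval 27.4 to 28.1%). The size of the set rests on the 1 bp criterion, and with overlap counted only where it covered 50% of both peaks 30831 peaks (52.9%) would qualify. The remaining 2687 had none and were set aside. The comparison set is the 38590 CTCF wt peaks that met a Rad21 wt peak and, by the same criterion, a CTCF peak of another genotype.

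The lists come from ChIP-seq of female clonal mouse embryonic fibroblasts (MEFs) from an F2 cross between M.m.domesticus (strain FVB) and M.m.Castaneus, made to ask what the chromosomal protein SmcHD1 does on the inactive X. The wt cells are clone Wt2A1, and the mut cells are clone Mut5A6, homozygous for the germline MommeD1 point mutation of SmcHD1 and described as null. Both lines were derived from littermate embryos, and each is 1 clone. The somKO cells are clones A3-3 and D4, in which SmcHD1 was disrupted by CRISPR in a different, triploid wild-type clone. The CTCF lists merge 3 wt, 3 mut and 4 somKO libraries, and the Rad21 lists 2 wt, 2 mut and 4 somKO libraries. There is thus 1 list per antibody and genotype, so no difference below has a test, intervals cover counting error only, and genotype cannot be told apart from clone. CTCF chromatin was fixed with formaldehyde alone and Rad21 chromatin with EGS and formaldehyde.

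CTCF is a zinc-finger protein that binds a long, well-conserved DNA motif and marks the borders of topologically associated domains. Cohesin is a ring-shaped complex that includes Rad21. It extrudes chromatin loops until it is stopped at CTCF molecules bound in the right orientation, which is why cohesin peaks usually coincide with CTCF peaks. SmcHD1 is a non-canonical relative of the SMC proteins of cohesin that acts on the inactive X and on a few autosomal gene clusters, the clustered protocadherins and Hox genes among them.

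Many of the sites without cohesin held an ordinary CTCF motif. The first examples are intronic, intergenic and promoter sites, each the one of highest CTCF wt score with a strict motif match, mostly unique sequence and no exon in the stretch, shown with 40 bp on either side. They are given so that sites that gained a Rad21 peak in both other genotypes can be set beside sites that gained none. Capitals mark the 20 bp matched to the CTCF weight matrix, whose most frequent base at each position reads TGGCCACTAGGGGGCGCTAT, and each is printed 5′ to 3′ on the strand of the motif (build mm10).
Espn intron, chr4:152138601-152138700, plus strand, Rad21 in neither: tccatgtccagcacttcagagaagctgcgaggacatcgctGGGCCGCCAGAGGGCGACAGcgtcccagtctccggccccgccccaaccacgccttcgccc
Tigar intron, chr6:127105281-127105380, minus strand, Rad21 in both: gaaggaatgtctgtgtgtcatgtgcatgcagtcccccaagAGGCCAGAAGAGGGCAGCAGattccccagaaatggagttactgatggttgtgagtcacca
Intergenic site nearest to Mkrn3, chr7:62433412-62433511, minus strand, Rad21 in neither: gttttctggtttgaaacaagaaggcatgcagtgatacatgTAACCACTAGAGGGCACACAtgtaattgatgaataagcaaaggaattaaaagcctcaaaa
Intergenic site nearest to Disc1, chr8:125052146-125052245, plus strand, Rad21 in both: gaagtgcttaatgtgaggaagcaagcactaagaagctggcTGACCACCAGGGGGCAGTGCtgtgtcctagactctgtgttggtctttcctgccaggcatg
Ttn promoter, chr2:76980373-76980472, minus strand, Rad21 in neither: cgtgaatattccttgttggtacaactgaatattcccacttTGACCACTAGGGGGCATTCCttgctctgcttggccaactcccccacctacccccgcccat

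A recurrent sequence context also stood out. The 14-letter word CACATGGTGGCTCA, which belongs to the B2 family of short interspersed repeats, was the most frequent soft-masked word of the member windows. The next examples are the highest-scoring sites that hold it with a strict motif match and no exon, shown to place the motif relative to the word, which appears in lower case near the 3′ end as its reverse complement TGAGCCACCATGTG. The Tigar example above, although listed apart, ends in tgagtcacca, which is close to the start of this reverse complement. The last sequence is the site in Grin2b, included because of the strength of its Rad21 peak in mut.
Intergenic site nearest to Mocs1, chr17:49359357-49359456, plus strand, Rad21 in neither: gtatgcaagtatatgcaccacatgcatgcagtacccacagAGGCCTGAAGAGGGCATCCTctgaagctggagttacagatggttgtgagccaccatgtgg
Ddn promoter, chr15:98810358-98810457, plus strand, Rad21 in both: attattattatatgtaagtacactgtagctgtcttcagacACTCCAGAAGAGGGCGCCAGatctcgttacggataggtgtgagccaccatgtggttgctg
Grin2b intron, chr6:136130657-136130756, minus strand, Rad21 in both: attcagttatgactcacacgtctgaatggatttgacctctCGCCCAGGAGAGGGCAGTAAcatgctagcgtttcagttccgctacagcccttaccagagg

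The sites without Rad21 were the weak end of the CTCF list. Their median score, the peak caller's measure of enrichment, was 192 against 1236 for CTCF sites with Rad21. Expressed as the percentile of a peak within its own autosomal list, the median was 27.03 (quartiles 15.0 and 40.8) against 66.1 (quartiles 44.9 and 83.3). The percentile was lower at sites without Rad21 on 19 of 19 autosomes, with means of chromosome medians of 27.04 ± 2.07 and 66.0 ± 1.53 (SD over autosomes). With 50% reciprocal overlap the difference in median percentile went from -39.1 to -17.9. Peaks were narrower too, with a median width of 296 bp against 589 bp. For a finer view the list was split by score into 10 bins of nearly equal size, with bin 1 the lowest. Sites without Rad21 made up 57.6% of the peaks in bin 3, 10.1% in bin 7 and 0.723% in bin 10, where 42 of 5809 peaks qualified. Bin 1 departed from this order with 41.4%, below the 57.0% of bin 2. These shares are of all peaks in a bin, including those with no CTCF peak in another genotype. Bin 1 held 2434 members of the set and 1283 comparison sites among 5875 peaks, and bin 2 held 3366 and 1653 among 5907. The lower value of bin 1 thus does not show that its peaks lacked Rad21 less often.

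**Figure D1:**
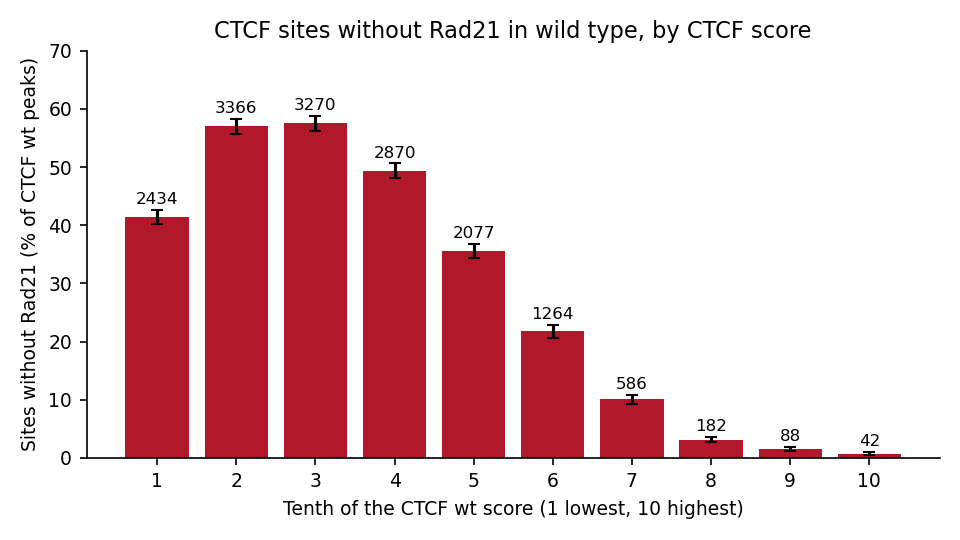
CTCF sites without Rad21 as a percentage of all autosomal CTCF wt peaks (y axis) in each of 10 bins of the CTCF wt score (x axis), with 95% Wilson intervals and the number of sites above each bar. The share is highest in bins 2 and 3, at 57.0% and 57.6%, and falls to 0.723% in bin 10.

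Most of the sites lay well away from cohesin. The median distance to the nearest Rad21 wt peak was 7008 bp (quartiles 1958 and 18878 bp), and 8.27% of the sites lay within 500 bp of one. The nearest CTCF site with Rad21 was at a median of 9446 bp. The 114 members within 100 bp of a Rad21 wt peak had a median CTCF percentile of 10.0 and a median width of 310.5 bp. Just across the threshold, the 189 comparison sites that overlapped their Rad21 peak by no more than 100 bp had 7.62 and 281 bp.

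CTCF was met more often in somKO than in mut. Because a CTCF peak in another genotype was required, these shares describe the choice of sites. A CTCF peak was present in both mut and somKO at 10657 sites (65.9%), in somKO alone at 4845 (29.9%) and in mut alone at 677 (4.18%). Over all autosomal CTCF wt peaks, which include those with no CTCF elsewhere, the shares were 78.6%, 13.7% and 1.77%. The somKO list is also the longest, with 67258 autosomal CTCF peaks against 56129 for mut. Where a mut peak was present, it was the higher of the pair at 52.4% of 11334 sites, and the median signed shift in percentile was 0.652, in which moves up and down offset each other. Against somKO the median shift was 8.51 and the somKO percentile was higher at 81.0% of 15502 sites. At sites with Rad21 the median shift was 3.08 and the somKO percentile was higher at 73.5%. Where a site met several peaks of another list, here and below, the highest percentile was taken, while the wt value is that of a single peak. The part of this choice and of list length in the shifts was not tested.

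By genomic position, the sites without Rad21 were intronic more often and promoter-associated less often than those with Rad21. Each peak was classed by its midpoint. Introns held 45.8% (45.0 to 46.5%) against 39.0%, more on 19 of 19 autosomes. Promoters, taken as 1 kb to either side of a transcript start, held 12% (11.5 to 12.5%) against 19.8% (19.4 to 20.2%), fewer on 19 of 19 autosomes (12.2 ± 2.03% and 19.6 ± 1.81%, SD). Intergenic sequence held 37.3% and 36.7%, coding exons 1.68% and 1.27%, and other exons, which include untranslated and non-coding ones, 3.29% and 3.29%.

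The promoter difference depended on the strength of the CTCF peak. In bin 1 of the score 13.2% of sites without Rad21 were promoters against 40.9% of sites with it, and in bin 2 the values were 11.2% and 40.2%. In bin 6 they were 14.4% and 15.8%. In bin 9 the direction was the opposite, 36.4% (27.1 to 46.8%) of 88 sites against 16.0%, and in bin 10 it was 31.0% of 42 sites against 24.8%, with overlapping intervals. Promoter sites without Rad21 also differed in base composition from promoter sites with it. Their mean GC content was 50.8% against 56.3%, and their median number of CpG dinucleotides in the 201-bp window around the midpoint was 3 against 7.

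**Figure D2:**
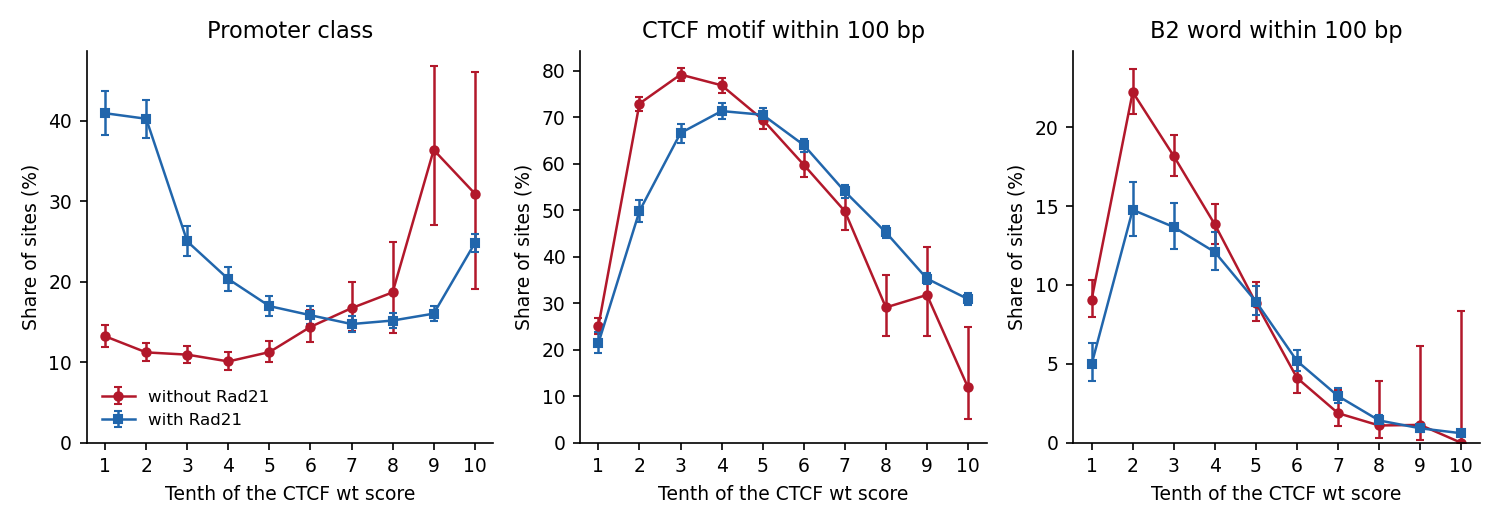
Share of sites (y axes, %) that were promoters, held the CTCF motif or held the B2 word, against the bin of the CTCF wt score (x axes, 1 lowest and 10 highest), with 95% Wilson intervals. Promoters are rarer at sites without Rad21 (red) than with Rad21 (blue) in the lowest 6 bins, and the motif and the word are more frequent at sites without Rad21 in the lowest 4.

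Repeated sequence and promoters were common among the few strong sites without Rad21. Of the 42 in bin 10, 13 were promoters, and at 14 at least 50% of the 32-bp words sampled from the window occurred more than once in the genome. That share, 33.3%, compares with 4.65% of sites with Rad21 in the same bin. A group of 6 lay at chr6:47659317-47763730, with a median of 14 to 16 genomic copies per word. The strongest site of all, at chr6:47752759-47753876 and 42.8 kb from Pdia4, scored 28852 and ranked at the 99.94 percentile in wt, 99.97 in mut and 99.95 in somKO. Reads in such copies cannot be placed with certainty.

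Named by class, the promoter sites of highest score were those of Gm26917 (19102) and Gm23935 (17592), neither of which met a Rad21 peak in mut or somKO. Both met an SmcHD1 wt peak, as did only 1.66% of all the sites, and neither held the CTCF motif in the window around its midpoint. Next came Nol11 (7968), whose product acts in ribosome biogenesis, Ddx46 (6936), an RNA helicase of the splicing machinery, and Ttc5 (6659), a p53 cofactor. The last 3 met a Rad21 peak in both mut and somKO. They had a median of 1 genomic copy per sampled word, as did Gm26917, while Gm23935 had 3. The Nol11 site had a CTCF percentile of 98.9 in wt against 98.6 in mut and 98.8 in somKO, and Rad21 peaks at the 53.7 percentile in mut and 61.5 in somKO, and lay 11474 bp from the nearest Rad21 wt peak.

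Within coding exons the leading sites were in Nop2 (3239), an rRNA methyltransferase, Sf1 (3194), a splicing factor, Foxj2 (2476), a forkhead factor, Kifc2 (2139), a kinesin, and Dst (2028), a cytoskeletal linker. Foxj2 alone among these met Rad21 in both genotypes, at the 28.7 percentile in mut and 66.8 in somKO, while Nop2 and Sf1 met it in somKO only. In other exons they were in Lars2 (4014), 1700042D02Rik (3485), Prss41 (2815), Gm10286 (2711) and Rasgrf2 (2690). In introns they were in Filip1l (14614), Cdk8 (7182), Snx31 (4729), Kpna7 (4031) and Krt28 (3702), and only Kpna7 met Rad21 in both genotypes. Among intergenic sites, a pair near Pdia4 (28852 and 21610) was followed by sites nearest to Axin2 (12422), Gm8797 (9006) and Rpp21 (8735). The sites in Lars2, Filip1l and Cdk8, the Pdia4 pair and those nearest to Axin2 and Gm8797 also met an SmcHD1 wt peak and held no motif in the window. Whether the signal at such sites is specific to CTCF was not tested.

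The CTCF motif was frequent at the sites without Rad21. In the 201-bp window around the midpoint, 64.5% (63.8 to 65.3%) held a match that 5% of 102813 flanking windows 2000 bp away also reach. The value for sites with Rad21 was 50.0%, and the share was higher at sites without Rad21 on 19 of 19 autosomes. On the even-numbered autosomes, which were not used to learn the matrix, the shares were 64.8% and 50.8%. This direction rests on the window, which does not count a motif elsewhere in a wide peak, and the peaks with Rad21 were wider. Over the whole peak the shares were 78.3% and 88.6% (10.2% and 18.03% in flanking stretches of the same lengths). By that measure the share was lower at sites without Rad21 on 19 of 19 autosomes. Among peaks of at most 600 bp the window shares were 69.5% and 70.5%. By score, the window share of the motif peaked at 79.2% in bin 3 and was found in 25.1% of bin 1 and in 5 of 42 sites of bin 10. It was more frequent at sites without Rad21 in bins 1 to 4 and less frequent in bins 5 to 10. Over the whole peak the motif was found in 36.4% of bin 1, 87.4% of bin 8 and 27 of 42 sites (64.3%) of bin 10, so the low window value at strong sites was not seen to the same extent by that measure.

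Repeat sequence was more common around the sites without Rad21. The mean soft-masked share of the window was 41.9% against 26.4% at sites with Rad21 and 27.9% in flanking windows. The B2 word itself, chosen for its frequency in the member windows, was present at 2210 sites (13.7%, 13.1 to 14.2%), at 4.76% of sites with Rad21 and in 0.746% of flanking windows. Restricted to peaks of at most 600 bp, the shares were 15.2% and 8.30%. It was most frequent in bin 2, at 22.2% against 14.8%. Of the members with the word, 93.5% also held the motif, against 59.95% of those without the word, and in 89.2% of the 2067 with both, the motif began exactly 33 bp from the first base of the word. The same distance was the most common at sites with Rad21, where it held for 81.2% of 1671. Of the examples printed for the word, Ddn has this distance, while at Mocs1 the word lies further from the motif.

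Sites with the B2 word were seen less often in the mut CTCF list. A CTCF mut peak was present at 55.9% of members with the word and 72.3% of those without it, whereas a CTCF somKO peak was present at 96.3% and 95.7%. The same order for mut held in each of the 6 lowest bins of the score, from 42.5% and 50.8% in bin 1 to 96.2% and 96.9% in bin 6. At 74.4% of sites with the word, and 11.5% of the others, at least 50% of the sampled 32-bp words were repeated in the genome. The part of read placement in this difference was not tested.

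A Rad21 peak was met at fewer of the sites in mut than in somKO. Of the 16179 sites, 2933 met a Rad21 mut peak (18.1%, 17.5 to 18.7%), against 62.5% of all autosomal CTCF wt peaks. In somKO 7082 did (43.8%, 43.0 to 44.5%), against 79.8% of all. The somKO share rests on the definition of overlap, and with 50% reciprocal overlap the shares were 18.4% in mut and 25.2% in somKO. Sites with Rad21 in wt met it in 85.3% and 98.5% of cases. Both genotypes had a peak at 2285 sites (14.1%), against 61.0% of all CTCF wt peaks, and at least 1 genotype had one at 7730 sites (47.8%), against 81.2%. Rad21 was found in somKO alone at 4797 sites (29.6%), in mut alone at 648 (4.01%) and in neither at 8449 (52.2%). Over all CTCF wt peaks these shares were 18.7%, 1.43% and 18.8%.

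The lists differ in length beside the genotypes. The Rad21 somKO list merges 4 libraries and has 87288 autosomal peaks, against 64520 in mut and 65769 in wt. With the lists of each antibody cut to equal length the shares were 19.4% and 39.3%. The reverse counts were as follows. Of the CTCF mut peaks that met no Rad21 mut peak, chosen in the same way, 25.8% of 14958 met Rad21 in wt and 49.5% in somKO. Of the CTCF somKO peaks without Rad21 in somKO, 5.07% of 10713 met Rad21 in wt and 7.99% in mut. Sites that lacked Rad21 in wt thus gained a mut peak less often (18.1%) than sites that lacked it in mut had a wt peak.

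The Rad21 peaks met ranked low in their lists. Their median percentile was 41.7 in mut and 45.7 in somKO, against 76.3 and 80.9 at sites with Rad21 in wt. A Rad21 peak at or above the 80 percentile of its list was met by 176 sites in mut (1.09%) and 505 in somKO (3.12%), while 36.5% and 51.1% of sites with Rad21 in wt met one. Many of these strong peaks were neighbours of a wild-type one. Within 500 bp of a Rad21 wt peak, 8.30% of 1338 sites met such a peak in mut and 24.2% in somKO. Beyond 5 kb the counts were 29 and 25 of 9378.

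Rad21 was met more often at stronger CTCF peaks. In bin 1 of the CTCF wt score 13.5% of the sites met Rad21 in mut and 32.8% in somKO, and in bin 9 50.0% and 76.1%. In bin 10, with the repeated loci described above, the shares were 42.9% and 59.5%. In each bin both values stayed below those of CTCF sites with Rad21, which were between 60.3% and 99.4% in mut. The median CTCF wt percentile was 37.6 at sites with Rad21 in both genotypes, 30.8 in mut alone, 30.6 in somKO alone and 23.0 in neither.

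**Figure D3:**
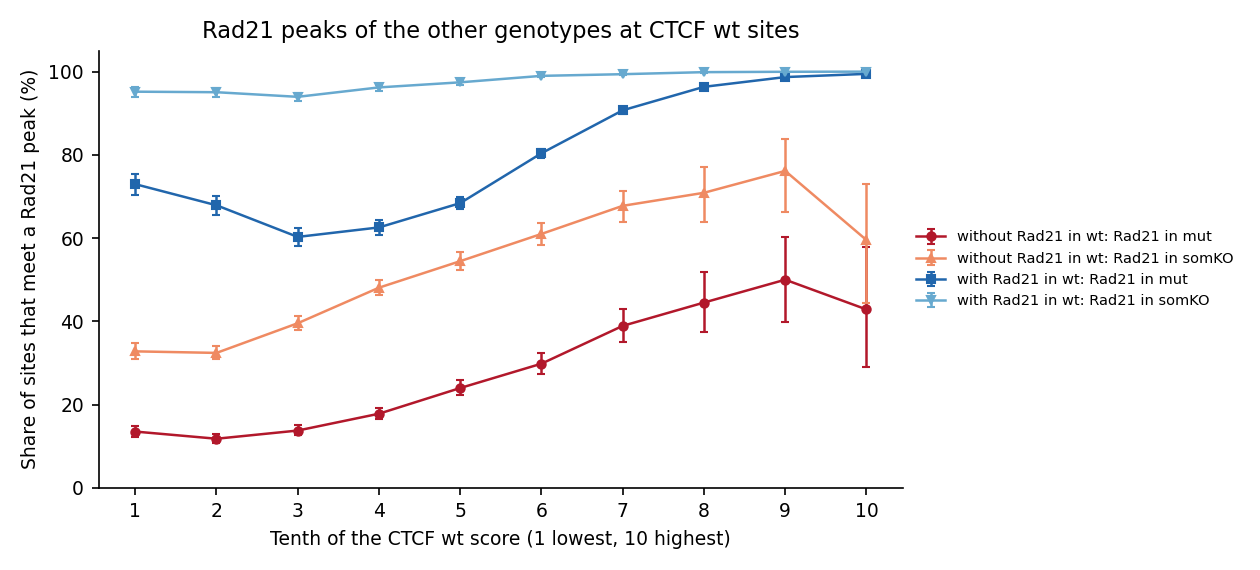
Share of CTCF wt sites that met a Rad21 peak of mut or somKO (y axis, %) by bin of the CTCF wt score (x axis), for sites without Rad21 in wt (reds) and with it (blues), with 95% Wilson intervals. Sites without Rad21 rise from 13.5% to 50.0% in mut and from 32.8% to 76.1% in somKO between bins 1 and 9, and lie below the sites with Rad21 throughout.

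Rad21 in a genotype went with CTCF in that genotype. Where the site had a CTCF mut peak, 24.1% of 11334 sites met Rad21 in mut, and where it had none, 4.23% of 4845 did. In somKO the values were 44.6% of 15502 and 25.7% of 677. At sites with the B2 word Rad21 was met in 13.7% in mut and 45.9% in somKO, and without the word in 18.8% and 43.4%. Within score bins the order varied. In mut the share was lower with the word in bins 1 to 3, as 8.82% against 12.6% in bin 2, but not in bins 4 to 6, as 25.5% against 23.8% in bin 5. In somKO it was lower with the word in bin 1, at 29.4% against 33.1%, and higher in bins 2 to 6, as 57.7% against 46.5% in bin 4.

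By class, promoters had the highest share in mut, as they did in the whole list. Of 1941 promoter sites 31.1% (29.1 to 33.2%) met a Rad21 mut peak, against 15.9% (15.1 to 16.8%) of 7402 intronic and 16.6% (15.7 to 17.5%) of 6033 intergenic sites. Over all autosomal CTCF wt peaks the mut shares were 78.5%, 57.8% and 60.3% in the same order. In somKO the shares lay closer, at 46.6%, 43.7% and 43.3%, while over all autosomal CTCF wt peaks they were 86.5%, 77.5% and 79.4%. Promoters made up 20.2% of the sites with Rad21 in both genotypes, 22.1% of those in mut alone, 9.26% of those in somKO alone and 10.6% of those in neither.

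The share also varied by chromosome. The share with Rad21 in mut ran from 12.2% on chromosome 5 to 28.6% on chromosome 10 (18.5 ± 4.66%, SD over 19 autosomes). In somKO it ran from 37.6% on chromosome 14 to 53.8% on chromosome 8 (43.8 ± 4.36%), and it was above the mut share on 19 of 19 autosomes. The whole list had the same extremes except for the highest in somKO. Over all CTCF wt peaks the mut share was also lowest on chromosome 5 (54.5%) and highest on chromosome 10 (72.1%). The somKO share was also lowest on chromosome 14 (74.9%), but it was highest on chromosome 3 (85.7%), with 82.9% on chromosome 8. The density of the sites was lowest on chromosome 3, at 3.26 per Mb, and highest on chromosome 11, at 11.7 per Mb, where the list held 2463 and 5060 CTCF wt peaks, of which the sites were 21.2% and 28.1%.

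**Figure D4:**
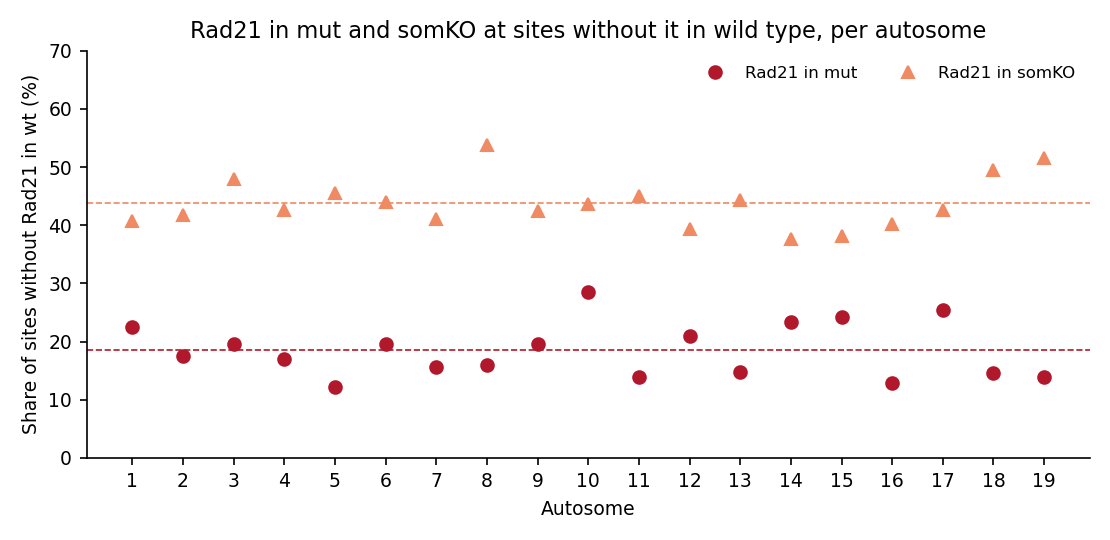
Share of the CTCF sites without Rad21 in wt (y axis, %) that met a Rad21 peak in mut (circles) or somKO (triangles) on each autosome (x axis), with dashed lines at the means over autosomes. Chromosome 10 is highest in mut at 28.6% and chromosome 5 lowest at 12.2%, and somKO lies above mut on every autosome.

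A small group of sites far from any wild-type cohesin had strong Rad21 in mut. These were ranked after values had been seen, among the 9378 sites over 5 kb from a Rad21 wt peak, and are a description. The first was the intron of Grin2b, a glutamate receptor subunit gene that is mainly neuronal. Its site, 222 kb from the nearest Rad21 wt peak, had CTCF at the 28.5 percentile in wt, at 76.8 in mut and at 64.2 in somKO, with Rad21 at the 92.7 percentile in mut and 84.8 in somKO.

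Other sites of this ranking, whose high Rad21 mut percentiles follow from the choice, had the values below. An intergenic site nearest to Gm36079, with CTCF at the 39.0 percentile in wt and 98.5 in mut, met Rad21 at 88.2 in mut. The site nearest to Cyp2b19, a cytochrome gene, had CTCF at 56.2 in wt and 84.8 in mut, with Rad21 at 87.3 in mut and 84.9 in somKO. At the Mettl24 promoter CTCF ranked at 39.6 in wt against 90.6 in mut and 30.9 in somKO, and Rad21 at 87.1 in mut with no somKO peak, so this gain was seen in mut alone. The site 135 kb from Irx3, a homeobox gene, and the intron of BC051142 had Rad21 mut percentiles of 86.7 and 86.6. A pair of sites nearest to Sfswap shared 1 Rad21 mut peak at 84.0.

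**Figure D5:**
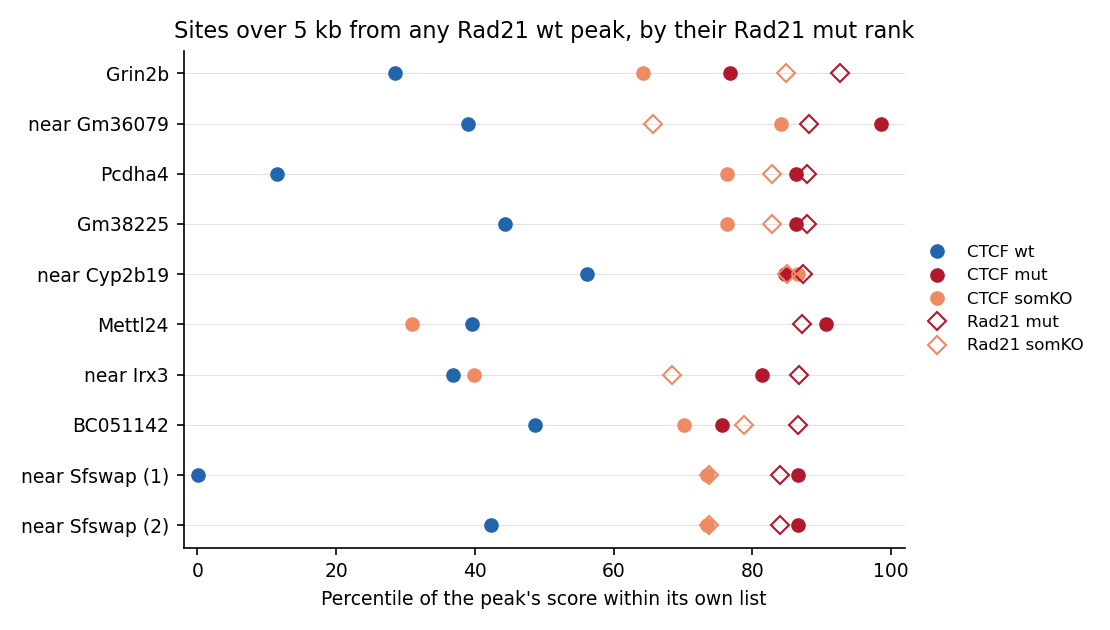
Percentile of the peak score within its own list (x axis) for the 10 sites over 5 kb from any Rad21 wt peak with the highest Rad21 mut percentile (y axis), where circles are CTCF peaks and diamonds Rad21 peaks, and a missing symbol means no peak. At each site CTCF wt, between 0.110 and 56.2, lies left of CTCF mut, between 75.6 and 98.5. The part of the choice of sites in this order was not tested. The Pcdha4 and Gm38225 sites share their mut and somKO peaks, as do both Sfswap sites.

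Clustered protocadherins, cell-adhesion genes of chromosome 18 whose alternative promoters each carry a CTCF site, were among these and were counted as a group after that was seen. The clusters held 57 CTCF wt peaks, of which 28 lacked Rad21 in wt, and 21 of the 28 were promoters. Rad21 was met at 21 of the 28 in mut (75%, 56.6 to 87.3%) and at 22 in somKO (78.6%), against 18.03% and 43.7% of the 16151 sites elsewhere. Over all 57 CTCF wt peaks of the clusters the shares were 84.2% in mut and 89.5% in somKO. A high share was thus not particular to the 28. Sites can share a Rad21 peak, as those of Pcdha4 and Gm38225 did, so the counts are not of separate Rad21 peaks. The median CTCF percentile of the 28 was 31.9 in wt, and the peaks they met had 73.7 in mut and 58.8 in somKO. The leading cases were the Pcdha4 promoter, with CTCF at 11.5 in wt and 86.2 in mut and Rad21 at 87.9 in mut, and the Pcdhb7 promoter, with CTCF at 52.2 in wt and 74.4 in somKO and Rad21 at 85.4 in somKO. None of the 28 met an SmcHD1 wt peak, which allows a share of up to 10.7% (3 counts of 28). Of the sites elsewhere 1.66% met one, as did 1 of the 57 CTCF wt peaks of the clusters. Both shares lie below that limit, so the count cannot set the 28 apart from other sites. It also does not show that SmcHD1 is absent from the clusters. The paper reports enrichment of this protein over the protocadherin locus.

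Among the Hox genes, which pattern the body axis, 4 of 39 held a site without Rad21, or 10.3%, against 27.3% of all 20807 protein-coding autosomal genes. Hox genes are short, with a median of 4.49 kb against 18.6 kb for all genes, and per 100 kb they held 1.32 sites against 0.909, so the direction depends on the scale. The strongest lay at the Hoxc10 promoter, within the annotated span of Hoxc5, at chr15:102966269-102966723, and was counted for both genes. CTCF there ranked at 47.9 in wt against 98.4 in mut and 71.3 in somKO, and Rad21 at 94.5 in mut and 57.3 in somKO. The site in Hoxa3 had CTCF at 46.9 in wt and 64.1 in mut and met no Rad21 peak, and the one in Hoxb6 met Rad21 at 28.0 in mut and 0.434 in somKO.

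Genes of the CTCF and cohesin machinery held sites of their own. Of 16 such genes on the autosomes 9 did (56.2%, 33.2 to 76.9%), and 11 held a CTCF site with Rad21 (68.8%). Over all protein-coding autosomal genes the shares were 27.3% and 51.0%. The machinery genes are longer, with a median of 45.6 kb against 18.6 kb, and per 100 kb they held 1.27 sites without Rad21 against 0.909. In Ctcf, within 1 kb of the start of Gm5915, the site ranked at 66.1 in wt and met Rad21 in somKO alone, at 59.97. Ctcfl, the testis relative of Ctcf, held 2, at 82.9 and 28.8, neither with Rad21. Nipbl, the loader of cohesin, held 5, and those at 53.8 and 22.6 met Rad21 in both genotypes. The structural subunit Smc3 and the meiotic subunit Smc1b held 1 each, at 47.1 and 45.8, with no Rad21. Wapl, which releases cohesin, held 2, at 39.0 and 23.5, the first with Rad21 in somKO. Single sites in Stag3, Stag1 and Pds5b, at 35.0, 33.9 and 33.1, met Rad21 in somKO alone. Several of these, in Smc3, Wapl and Nipbl, lay in repeated sequence with a median of 29.5 to 276.5 genomic copies per sampled word.

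Other lists differed in how many genes they held. Chromatin regulators held a site without Rad21 in 15 of 30 genes and a site with Rad21 in 26, against 27.3% and 51.0% of all protein-coding genes. Their leading cases were Jarid2, a Polycomb cofactor (CTCF wt percentile 76.5), Tet1, a DNA demethylase (70.5), Kdm2b (49.3) and Dnmt3a, a DNA methyltransferase (46.6). The Tet1 and Kdm2b sites met Rad21 in somKO, at 56.3 and 31.1, and the other two met none. Fibroblast matrix genes, the main products of these cells, held one in 3 of 30 genes but a site with Rad21 in 24. Fbln1 led them with sites at 62.8 and 51.3, and Col5a1, a fibrillar collagen gene, had sites at 50.1 and 26.1 that both met Rad21 in mut and somKO. Growth response genes had one in 4 of 22, among them Atf3 (50.3), Fosb (42.9) and Nr4a1 (25.7).

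Ribosomal protein genes held one in 6 of 81, with Rps3a1 at the 93.0 percentile and Rad21 in both genotypes, followed by Rpl18 (50.4), Rps14 (49.5) and Rpl3l (41.2). Zfp genes held one in 62 of 383 (16.2%), led by Zfp523 (86.8), Zfp64 (79.1 and 63.9) and Zfp950 (64.1). Olfactory receptor genes held one in 16 of 1087 (1.47%), led by Olfr763 (69.3), Olfr304 (55.7), Olfr750 (55.0) and Olfr1390 (50.5), and 14 of the 16 had no CTCF site with Rad21, against 1447 of the 5682 protein-coding genes that held a site. Gene length differs between the lists, with a median of 45.6 kb for the machinery genes, 34.3 kb for the matrix genes and 6.98 kb for the olfactory receptors, and longer genes have more room for a site. Per 100 kb the order was different, with 2.70 sites in growth response genes, 1.82 in chromatin regulators, 1.31 in ribosomal protein genes, 1.27 in machinery genes, 0.690 in Zfp genes, 0.379 in matrix genes and 0.190 in olfactory receptor genes, against 0.909 in all.

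The protein-coding genes with most sites were long ones. Several are gene models that span other genes, such as Gm20388 on chromosome 8 (4435 kb, 90 sites), Fgfr2 as annotated on chromosome 7 (2961 kb, 27 sites) and Gm42416, Gm37013 and Gm37388 (25, 22 and 21 sites), which span the protocadherin clusters. Next came Dnah8, a dynein gene, with 18 sites without Rad21 and 5 with it, Mtus2 with 18 and 8, Fry with 18 and 7, Cdh13, a cadherin gene, with 17 and 9, and Camta1, a transcription factor gene, with 16 and 17. Per 100 kb Dnah8 had 7.09 sites without Rad21, Mtus2 5.00 and Fry 4.74, above the value for all protein-coding genes together.

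SmcHD1 was found at about as small a share of these sites as of the whole CTCF list. An SmcHD1 wt peak was met by 268 of them (1.66%, 1.47 to 1.86%) and by 829 sites with Rad21 (2.15%, 2.01 to 2.30%), against 1.94% of all autosomal CTCF wt peaks. The share was lower than at sites with Rad21 on 13 autosomes and higher on 6. Chromosome 5 was the highest, with 6.60% of the sites and 7.72% of those with Rad21. Of the 268, 29.1% (23.99 to 34.8%) met Rad21 in mut and 47.8% in somKO, against 17.9% and 43.7% of the sites without SmcHD1. CTCF sites with Rad21 showed the same order. Those with an SmcHD1 wt peak met Rad21 at 92.6% in mut and 99.4% in somKO, against 85.3% and 98.5% of all such sites. A higher share at sites with SmcHD1 was thus not particular to the set. In the mut SmcHD1 list, which has 241 autosomal peaks, 35 of the sites met a peak (0.216%), against 0.134% of all CTCF wt peaks.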

How the data were processed

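ChIP-seq peak lists of CTCF, Rad21 and SmcHD1 were used as the authors deposited them, 8 in all, each called by them with MACS2 at a q-value below 0.05 on replicates merged after Bowtie2 alignment to SNP-masked mm10, with both alleles together. Tool versions are not given in the sources used here. The deposited score is a whole number, read here as 10 times −log10 of q and used only to rank peaks within a list. Depth per library is unknown, and no column of another sample was used.

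Overlaps, shares and 95% Wilson intervals were computed in Python 3.11.15 with pandas and scipy, and tested on simulated data. Genes are those of GENCODE M21, sequence is GRCm38.p6 from RefSeq. The 20-bp weight matrix was learnt from the 1000 highest-scoring CTCF sites with Rad21 on odd-numbered autosomes that were at most 600 bp wide and free of soft-masked bases. The last 2 limits, like the B2 word and the alternatives so named in the closing section, were set after seeing the data. Repeated sequence was judged from 8 words of 32 bp per window.

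Named sites are the 5 of highest score per class and those of the gene lists (at most 4 per list, all for the CTCF and cohesin machinery), and the 10 genes with most sites. Members and lists were chosen with earlier results of these data known. H3K27me3 and input samples were not used here.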

Additional observations from a re-analysis of the deposited data

How the results depend on the processing

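Of 52 alternatives over 7 values, 11 stayed within the interval or the spread over autosomes of the reported value, 29 moved and 12 reversed a difference. With 50% reciprocal overlap the set grew to 52.9% of CTCF wt peaks, the difference in median percentile shrank to -17.9, and the somKO share fell to 25.2%. The set was 25.5% with no Rad21 wt peak within 500 bp, 18.3% with CTCF required in both other genotypes (percentile difference -35.3), 28.7% at a score of at least 50 and 25.8% with lists of equal length. In the same order, apart from CTCF in both, the mut share was 17.1%, 16.5% and 19.4%, and the somKO share was 42.0% with 500 bp and 39.3% with equal lists. Leaving out 1 autosome gave 17.6 to 18.8% in mut and 43.1 to 44.1% in somKO, and leaving out repeated sequence 18.9% in mut. The promoter difference (percentage points, without minus with Rad21) was -6.72 within 500 bp and -6.74 within 2 kb of a start and -6.33 at a score of at least 50. Over the 10 score bins, lowest first, it was -27.7, -29.0, -14.1, -10.2, -5.71, -1.44, 1.98, 3.4997, 20.3 and 6.17. The motif difference was -10.3 over the whole peak, 13.4 at the stricter score, -0.997 in peaks of at most 600 bp and 11.999 without the B2 word, the last pair chosen after seeing the data. Over the bins it was 3.67, 23.1, 12.6, 5.54, -1.03, -4.24, -4.23, -16.1, -3.498 and -19.0. A fixed window does not count a motif elsewhere in a wide peak, and the cause of these changes was not tested. No paired analysis was possible because the replicates were merged before deposit. Overlap of peak lists cannot tell absent Rad21 from Rad21 below the caller's threshold.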

Other observations

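The X chromosome was kept out of the set, and the same rule was applied to it afterwards. Of 1942 CTCF wt peaks on the X, 574 (29.6%, 27.6 to 31.6%) met no Rad21 wt peak and had CTCF in another genotype. A Rad21 peak was present at 13.2% (10.7 to 16.3%) of these in mut and 52.8% (48.7 to 56.8%) in somKO, against 56.2% and 82.1% of all CTCF wt peaks on the X. An SmcHD1 wt peak was met by 24 of the 574 (4.18%, 2.83 to 6.15%) and by 107 of the 1276 X-linked sites with Rad21 (8.39%, 6.99 to 10.0%). Reads of the 2 X chromosomes were pooled in these lists.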
